A study of Mus musculus with 28 samples.

Results

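The 9 genes described here belong to the postsynaptic density or encode subunits of calcium/calmodulin-dependent kinase II (CaMKII), and they were followed through ribosome footprints and total mRNA of mouse MN1 cells and cortical neurons. They were chosen by name from 45513 annotated genes, and were Camk2a, Camk2b, Dlg4, Shank1, Shank2, Shank3, Homer1, Dlgap3 and Nrgn, each found under 1 identifier. MN1 is a clonal hybrid line made from mouse spinal motor neurons and neuroblastoma cells. It was transiently transfected with GFP, with wild-type human TDP-43 (hTDP-43) or with the disease mutant hTDP-43 A315T (2 cultures each), and all of these cultures received cycloheximide at 100 µg/ml for 3 min before lysis. Cortical neurons came from embryonic day 16 (E16) C57BL/6J mice and were harvested after 14 days in vitro. They were non-transgenic (WT, 2 cultures) or carried a human transgene under the prion protein promoter, encoding hTDP-43 (3 cultures) or hTDP-43 A315T (3 cultures). They received no cycloheximide before lysis. Each of the 14 cultures gave 1 footprint library, which counts mRNA fragments protected by ribosomes, and 1 total mRNA library, so that 28 libraries were compared.

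The postsynaptic density is the protein scaffold beneath the receptors of excitatory synapses. Dlg4 encodes PSD-95, which binds glutamate receptors. Dlgap3 encodes a SAPAP protein that joins PSD-95 to the SHANK proteins, and SHANK and HOMER proteins form the deeper layer of the scaffold. Camk2a and Camk2b encode the alpha and beta subunits of CaMKII, the kinase that calcium influx through NMDA receptors activates, and Nrgn encodes neurogranin, which binds calmodulin when calcium is low. Several of these mRNAs, that of Camk2a foremost, are known to be carried into dendrites and translated there, which makes their ribosome occupancy a classical subject of the study of local translation.

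Footprints come mostly from coding sequence, whereas total mRNA reads come from the whole transcript, and counts were summed over all exons. The share of the exon length that the principal transcript's coding sequence could fill therefore differed between the genes. It was 78.4% for Shank1, 64.9% for Dlgap3, 58.4% for Shank3, 51.8% for Shank2 and 43.7% for Dlg4. It was 19.2% for Camk2a, 17.9% for Camk2b, 16.3% for Nrgn and 10.1% for Homer1, against a median of 46.9% over coding genes. Transcript models were those of GENCODE M21 (GRCm38), whose gene coordinates equalled those of the count tables for 6 of the 9 genes; the Shank1 model was longer than the exons that were counted.

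Sequence around the start codon is shown because it is the context in which scanning ribosomes meet that codon. Each line gives 10 bases before the ATG, the ATG in capitals and 7 bases after it, on the coding strand.
Camk2b: cgccaccgccATGgccacca
Dlg4: gccccccaacATGgactgtc
Homer1: attgggcaaaATGggggagc
Nrgn: aacaccggcaATGgactgct
Shank1: tggccccacgATGacccaca
Shank2: tccaggcaccATGccacgca
Dlgap3: tgctgaggccATGaggggtt
The ATG lay at chr11:6065536-6065538 (minus strand) for Camk2b, chr11:70018920-70018922 (plus) for Dlg4, chr13:93305298-93305300 (plus) for Homer1 and chr9:37552549-37552551 (minus) for Nrgn, in GRCm38. For Shank1 it lay at chr7:44312707-44312709, for Shank2 at chr7:144031264-144031266 and for Dlgap3 at chr4:127194613-127194615, all on the plus strand. The first 4 sequences hold both a purine 3 bases before the ATG and a G right after it, whereas the last 3 hold the purine but not the G. Both features stood in 41.6% of 20160 coding genes, so that their presence was common.

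TDP-43 is known to bind UG repeats, and the longest alternating run of T and G, read on the transcript strand only, was therefore recorded for each principal transcript. Shank3 held TGTGTGTGTGTGTG in its 3′UTR (chr15:89559223-89559236, plus strand), and 4.93% of coding genes hold a run at least as long. Shank2 held a run of 10 bases in its 3′UTR (chr7:144424170-144424179, plus strand), a length that 9.34% of coding genes reach. In the other 7 genes the longest run was 5 to 7 bases. These matches are descriptions of the annotated sequence and were not tested as binding sites.

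Depth was low and uneven. Counted reads per library ranged from 600385 to 6969578 in neuron total mRNA, from 166064 to 2528820 in neuron footprints, from 1328528 to 2988339 in MN1 total mRNA and from 332370 to 1219222 in MN1 footprints. Replicate 3 of WT and of hTDP-43 neurons stood apart in total mRNA, where Lars2 took 18.8% and 14.1% of reads against 3.09% to 7.49% in the other 6. Summed pan-neuronal markers were at 3633 to 4404 counts per 1e6 reads (CPM) in neuron total mRNA and at 449 to 616 CPM in MN1 cells. Excitatory markers summed to 661 to 1217 CPM, inhibitory markers to 557 to 1138 CPM, astrocyte markers to 58.5 to 144 CPM, oligodendrocyte lineage markers to 38.5 to 68.6 CPM, and endothelial and fibroblast markers to 3.41 to 11.9 CPM in neuron total mRNA. Microglial markers reached at most 3.54 CPM there, and the proliferation genes Mki67 and Top2a summed to at most 6.24 CPM against at least 162 CPM in MN1 cells. Motor neuron markers summed to 49.6 to 77.2 CPM in MN1 total mRNA and to 4.18 to 10.6 CPM in neurons. Mouse Tardbp reads, which can include human transgene reads, were at 246 and 251 CPM in GFP total mRNA. They were at 353 to 477 CPM in total mRNA of MN1 cells given a hTDP-43 or hTDP-43 A315T construct. In neuron total mRNA the groups overlapped (65.6 and 108 CPM in WT, 54.1 to 89.9 CPM in the hTDP-43 and hTDP-43 A315T groups). In neuron footprints WT was at 98.9 and 103 CPM, above hTDP-43 (61.3 to 92.3 CPM) and hTDP-43 A315T (78.6 to 94.9 CPM).

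Levels are first given in neurons, on a scale of CPM per kilobase of counted exon. That length covers the exons of all annotated transcripts, so that the order of genes depends on the annotation. For Homer1 it was 10502 bases, against 2765 in the principal transcript and 1065 of coding sequence. By median, Nrgn stood highest in total mRNA (lowest 150.4, median 364, highest 668 over 8 libraries) and Homer1 lowest (7.55, 12.9 and 21.6). Between them came Dlg4 (median 269), Dlgap3 (164), Shank1 (152), Camk2b (140.2), Camk2a (120.4), Shank3 (70.5) and Shank2 (39.0). From Nrgn down to Shank3 the ranges of neighbours in this order overlapped. Compared within libraries, Nrgn lay above Dlg4, Dlg4 above Dlgap3 and Camk2a above Shank3 in each of the 8. The order of Dlgap3, Shank1, Camk2b and Camk2a changed between libraries and was not resolved. Shank1 also lay above Nrgn and Dlg4 in WT replicate 3 (184.3 against 150.4 and 127.3). In hTDP-43 replicate 3 it lay above Dlg4 (233.7 against 198.7). Shank3, Shank2 and Homer1 each lay apart from the next. Even Homer1 was above 85.2% of the 27116 genes with a read in neuron total mRNA, and Nrgn was above 99.8%.

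On the same scale, with the same limit, the order in neuron footprints was different. Nrgn (median 320 CPM per kilobase) lay above every other gene without overlap. Camk2b (126) and Camk2a (110.3) came next, followed by Dlg4 (80.1), Dlgap3 (35.2), Shank1 (33.1), Shank2 (17.9), Shank3 (17.5) and Homer1 (8.66). Both kinase subunits thus stood above the Shank and Dlgap3 scaffolds in footprints, with ranges that did not overlap except between Camk2a (lowest 62.2) and Shank1 (highest 73.8). In total mRNA, the range of Camk2a (highest 139) overlapped those of Dlgap3 and Shank1.

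The 2 kinase subunits kept a narrow proportion in neurons. Per kilobase of exon, Camk2a was at 0.682 to 1.07 times Camk2b in total mRNA (median 0.818, 8 libraries) and at 0.559 to 0.991 times Camk2b in footprints (median 0.817). The medians differed by less than the spread between libraries. The proportion depends on annotated lengths, and per kilobase of coding sequence its medians were 0.759 and 0.758.

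All 9 genes were higher in neurons than in MN1 cells, in total mRNA and in footprints alike. In edgeR's quasi-likelihood test with Benjamini-Hochberg adjustment, 9 of 9 passed an adjusted p of 0.05 in each, where 42.6% of 12801 genes were called higher in total mRNA and 42.7% of 10698 in footprints. For each gene the lowest neuron library lay above the highest MN1 library. The share of all genes that separate in this way is not given here, so that this describes the levels only. The count of 9 is a description, because Shank2, Shank3 and Nrgn did not pass the filter on low counts in MN1 libraries alone, and in MN1 footprints alone only Dlg4, Dlgap3 and Homer1 did. The others entered the test through the neuron libraries, where they are high. In bulk samples a smaller share of expressing cells and less RNA per cell cannot be told apart, nor can cell type be told apart from cycloheximide, medium and the date in the titles, which differed between the cell types throughout.

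**Figure D1:**
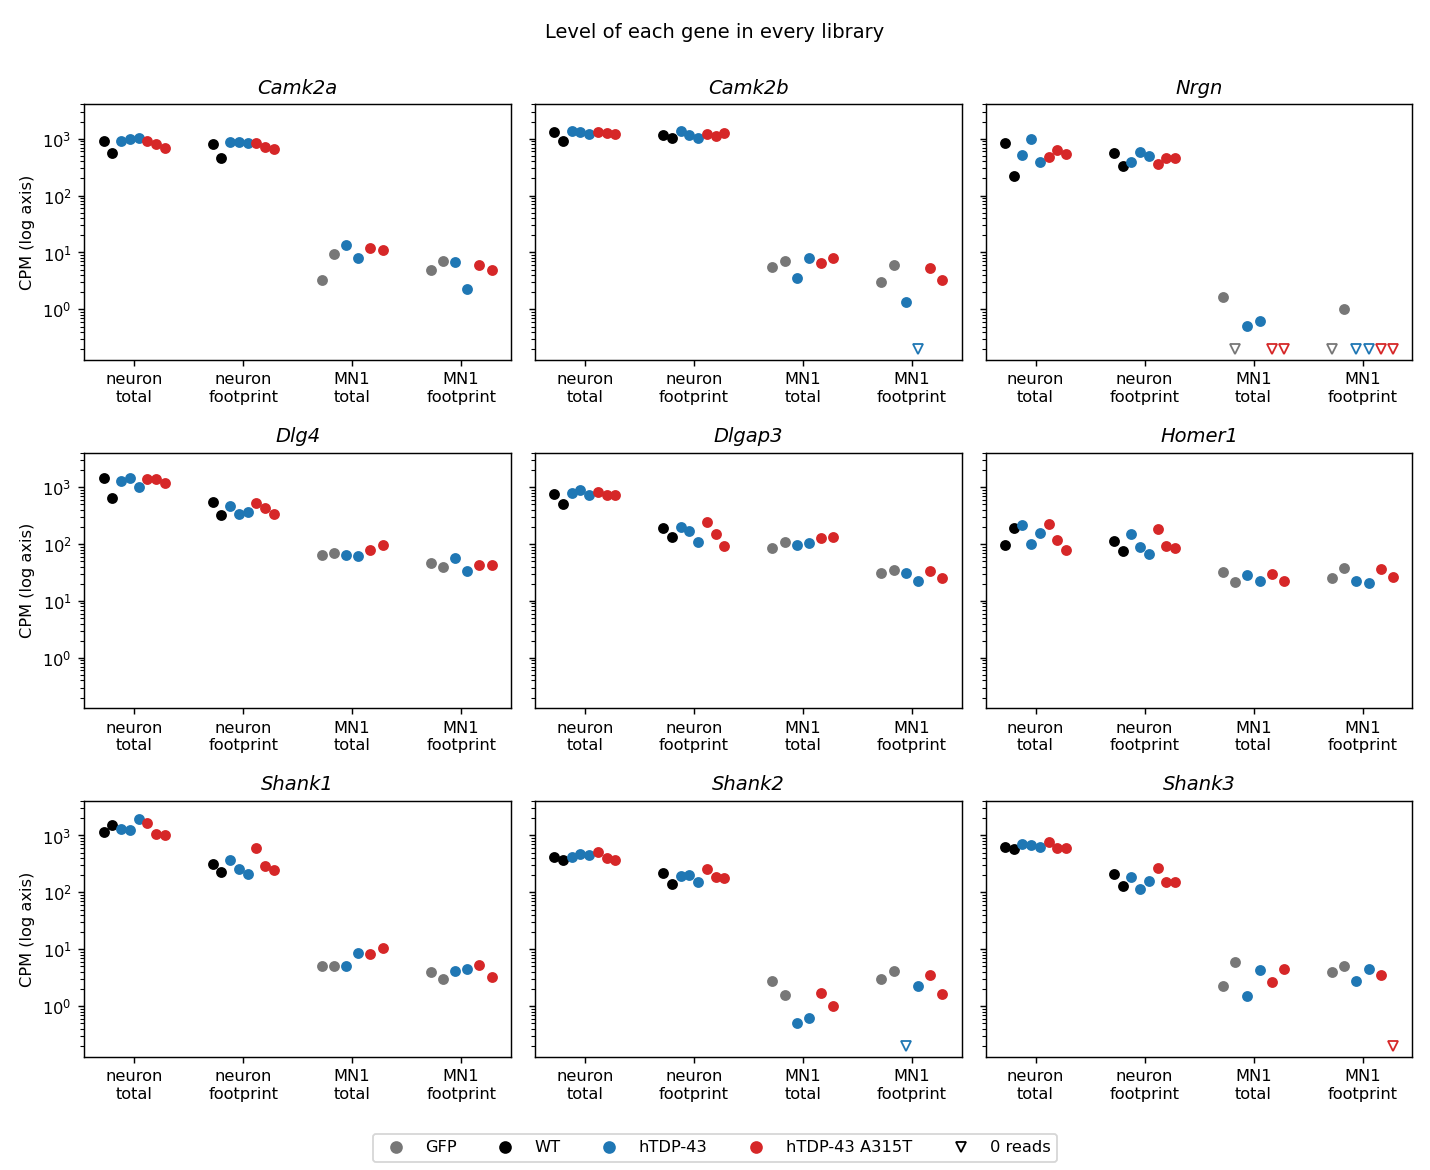
Level of the 9 genes in each of the 28 libraries, in CPM on a log axis, by cell type and library. Each point is 1 library, coloured by genotype, and open triangles mark libraries with 0 reads. Neuron libraries stand above MN1 libraries for each gene, by the smallest margin for Homer1.

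The 9 genes fell into 2 sets by their level in MN1 cells. Dlgap3 (84.8 to 131 CPM), Dlg4 (61.6 to 96.7 CPM) and Homer1 (21.1 to 31.8 CPM) were well counted in MN1 total mRNA. Dlg4, for example, was at 634 CPM in the lowest neuron library, a median of 1342 CPM and 1446 CPM in the highest. Its log2 fold change was 4.18 (SE 0.20, adjusted p = 6.0e-11) in total mRNA and 3.21 (SE 0.15, adjusted p = 1.3e-14) in footprints. Dlgap3 differed by 2.88 (SE 0.13, adjusted p = 4.3e-11) and 2.41 (SE 0.19, adjusted p = 1.3e-10). Homer1 showed the smallest differences, at 2.64 (SE 0.28, adjusted p = 6.2e-07) and 1.96 (SE 0.20, adjusted p = 8.1e-09). Scaffold genes that link receptors to the deeper density were thus measurable in this cell line.

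Camk2a, Camk2b, Shank1, Shank2, Shank3 and Nrgn were near the limit of detection in MN1 cells, where 3 reads correspond to 1.02 to 1.85 CPM in total mRNA and to 2.62 to 6.80 CPM in footprints. Camk2a was at 3.35 to 13.3 CPM in MN1 total mRNA and at 553 to 1038 CPM in neurons, a log2 fold change of 6.58 (SE 0.23, adjusted p = 3.7e-12). Camk2b went from 3.57 to 8.02 CPM in MN1 cells to 915 to 1377 CPM in neurons (log2 fold change 7.69, SE 0.21, adjusted p = 6.6e-13). The Shank genes differed by 7.75 (Shank1, SE 0.25), 8.54 (Shank2, SE 0.20) and 7.63 (Shank3, SE 0.23) in total mRNA, and by 6.17 (SE 0.27), 6.40 (SE 0.24) and 5.63 (SE 0.26) in footprints. These fitted values rest on few MN1 reads, since all 6 MN1 footprint libraries together held 20 reads of Shank1, 13 of Shank2 and 17 of Shank3. In footprints the Shank2 value rose to 7.44 without MN1 hTDP-43 replicate 2 and was 5.70 with GFP and WT cultures alone, and the Shank3 value rose to 7.12 without MN1 hTDP-43 A315T replicate 1. In total mRNA the Shank2 value was 7.69 with GFP and WT cultures alone.

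Nrgn was nearly without reads in MN1 cells, with 5 reads over 6 total mRNA libraries and 1 read over 6 footprint libraries. In neurons it had 13234 and 3324 reads. The pooled ratio of neurons to MN1 cells was 1431 in total mRNA (95% exact conditional binomial interval 613 to 4409) and 2081 in footprints (373 to 82229). Of the 5 total mRNA reads, 3 came from GFP replicate 1, and without that library the ratio was 3078 (852 to 25423). Without GFP replicate 2, no footprint read was left in MN1 cells. These intervals cover counting error only. A fitted fold change was not used for this gene because 3 total mRNA and 5 footprint libraries of MN1 cells held 0 reads.

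Most other genes of the postsynaptic density and its calmodulin partners were higher in neurons too. Of 38 such genes, 35 were higher in neurons in total mRNA, 2 were lower and 1 was not called (median log2 fold change 3.57, against 0.09 over all genes tested, of which 42.6% were higher and 38.4% lower). Agap2, whose product is a GTPase regulator (7.83, SE 0.20), and the neuroligin gene Nlgn2 (4.10, SE 0.14) were among the clearest. Tanc1 (-3.18, SE 0.20), a scaffold gene, and Homer3 (-1.54, SE 0.26), a paralogue of Homer1, were lower in neurons. Of the dendritically localised mRNAs, Map2 (6.90, SE 0.27), Ddn (8.26, SE 0.28), Prkcz (3.83, SE 0.16) and Bdnf (5.76, SE 0.50) were higher in neurons, and Arc (-0.21, SE 0.30, adjusted p = 0.52) was not called.

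Within neurons the ratio of footprints to total mRNA divided the 9 genes. Dlg4, Dlgap3, Shank1, Shank2 and Shank3 had fewer footprints than their mRNA level would give at the average ratio, by a factor of 2.12 to 4.24. Camk2a, Camk2b, Nrgn and Homer1 lay near the average. In edgeR's quasi-likelihood test, 5 of 9 were called lower and none higher, where 27.3% of 11654 genes tested were called lower. This ratio is relative to the other genes of the same libraries and not an absolute translation rate.

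Dlgap3 had the lowest ratio. Its log2 footprint to total mRNA ratio was -2.88 in the lowest culture, -2.07 at the median and -1.76 in the highest, and the fitted value was -2.08 (SE 0.17, adjusted p = 2.6e-08). Shank1 ranged from -3.11 to -1.44 (median -1.90) with a fitted value of -2.07 (SE 0.19, adjusted p = 1.2e-07). For both genes each of the 8 cultures lay below 0.

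Shank3, Dlg4 and Shank2 followed. Shank3 lay between -2.44 and -1.50 (fitted -1.83, SE 0.14, adjusted p = 1.6e-08). Dlg4 lay between -1.97 and -0.83 (fitted -1.43, SE 0.16, adjusted p = 1.1e-06). Shank2 was the least reduced of the SHANK family, between -1.46 and -0.86 (fitted -1.08, SE 0.12, adjusted p = 8.8e-07), and again 8 of 8 cultures were below 0. Among all genes tested, only 3.16% had a lower fitted ratio than Dlgap3, 3.22% than Shank1, 4.36% than Shank3, 7.54% than Dlg4 and 12.8% than Shank2.

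**Figure D2:**
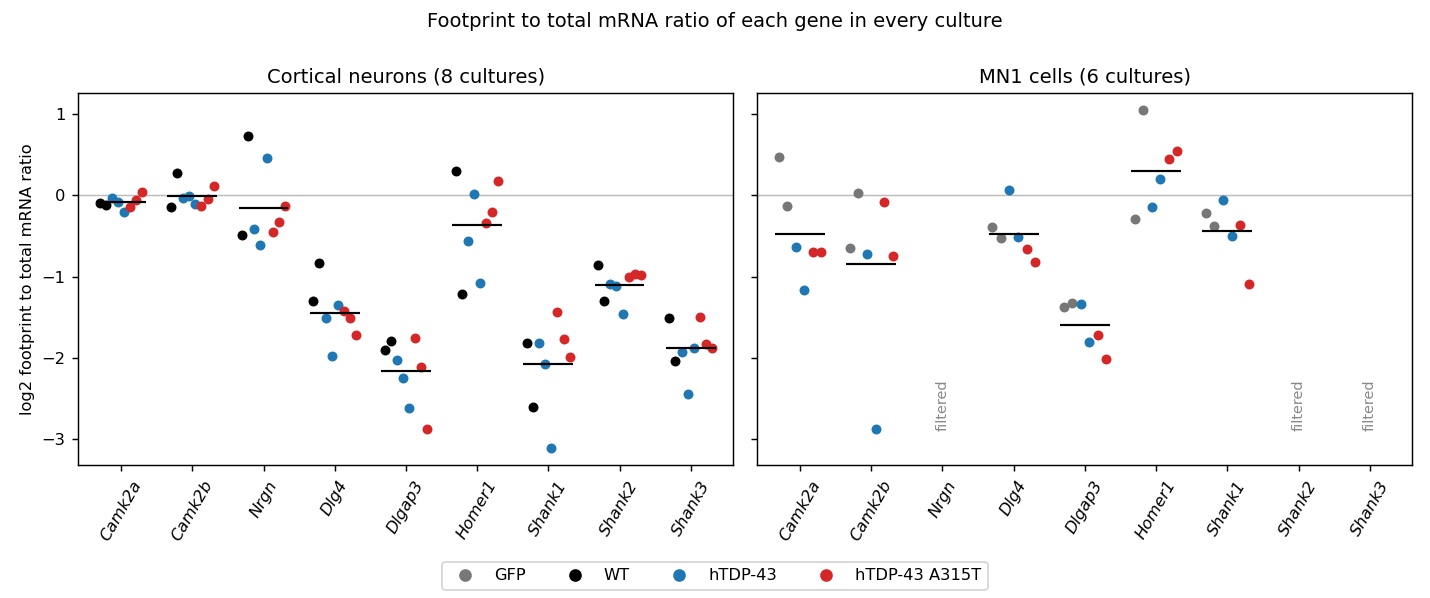
Log2 ratio of footprints to total mRNA for the 9 genes in each neuron culture (left) and MN1 culture (right). Points are cultures, coloured by genotype, black lines are means, and genes removed by the filter on low counts are marked as filtered. Dlg4, Dlgap3, Shank1, Shank2 and Shank3 lie below 0 in all 8 neuron cultures, and Camk2a and Camk2b lie close to 0.

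The CaMKII transcripts lay close to the average ratio. Camk2a had the tightest ratio of the 9 genes, from -0.21 to 0.04 over 8 cultures (mean -0.08 ± 0.07, SD, n = 8), and its fitted value was -0.09 (SE 0.13, adjusted p = 0.59). Camk2b ranged from -0.14 to 0.28 (mean -0.01 ± 0.14, SD, n = 8; adjusted p = 0.98). Camk2a and Camk2b thus sat at the middle of all genes tested, above 45.8% and 49.9% of them.

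Nrgn and Homer1 were more variable. Nrgn ranged from -0.60 to 0.73 (fitted -0.23, SE 0.24, adjusted p = 0.43). Its highest ratios, 0.73 and 0.46, were those of the 2 cultures rich in Lars2 reads (WT and hTDP-43, both replicate 3), and without them it was called lower in footprints (-0.49, adjusted p = 0.037; range over 13 alternatives 0.037 to 0.93). Homer1 ranged from -1.21 to 0.30 (fitted -0.37, SE 0.24, adjusted p = 0.20), and its 2 lowest ratios, -1.21 and -1.08, were in the same 2 cultures. Without the filter on low counts Homer1 was called lower too (-0.43, adjusted p = 0.027; range over 13 alternatives 0.027 to 0.87). The part that Lars2-rich libraries have in these values was not tested.

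Coding share and start context are given beside these calls, and their part in the ratios was not tested. Shank1, Dlgap3, Shank3 and Shank2, which were called lower in footprints, had coding shares of 51.8% to 78.4%, and Dlg4, also called, one of 43.7%. Camk2a, Camk2b, Nrgn and Homer1, which were not called, had coding shares of 10.1% to 19.2%. Counted exons can include those of other transcripts, which lowers this share by unlike amounts. For Homer1 they held 10502 bases against 2765 in its principal transcript, and for Camk2b 9125 against 4023. For Shank2 they held 10660 against 8988, and for Nrgn 1453 in both. Of the sequences shown, those of Camk2b, Nrgn and Homer1, which were not called, hold both the purine and the G around the ATG, and so does that of Dlg4, which was called, whereas those of Shank1, Shank2 and Dlgap3 lack the G.

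**Figure D3:**
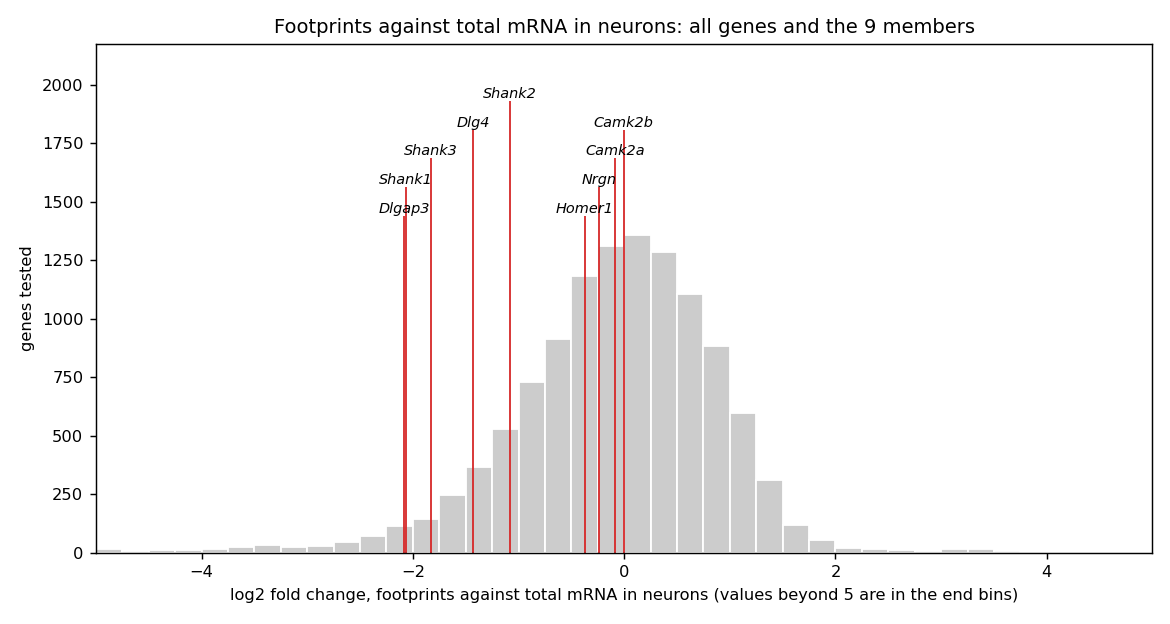
Distribution of the fitted log2 fold change of footprints against total mRNA in neurons over the 11654 genes tested (grey bars, number of genes per bin), with the 9 genes as red lines. Dlgap3, Shank1, Shank3, Dlg4 and Shank2 lie in the lower tail and Homer1, Nrgn, Camk2a and Camk2b near the middle.

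Among the other 38 postsynaptic and calmodulin genes, 20 were lower in footprints than in total mRNA in neurons, 7 were higher and 11 were not called (median -0.51, against -0.00 over all genes tested). Of all 11654 genes tested, 27.3% were lower and 26.6% higher. The clearest decreases were those of the neuroligin genes Nlgn3 (-2.62, SE 0.17) and Nlgn2 (-1.18, SE 0.10), of Agap2 (-1.74, SE 0.13) and of Ppp1r9b, which encodes the spine protein spinophilin (-1.70, SE 0.12). Higher in footprints were Cnksr2 (1.12, SE 0.14), the calmodulin gene Calm2 (0.85, SE 0.13), the CaMKII delta gene Camk2d (0.61, SE 0.12) and the calcineurin gene Ppp3ca (0.56, SE 0.13). Camk2g, the gamma subunit, named after its value was seen because it completes the CaMKII family, was not called (-0.10, SE 0.11, adjusted p = 0.56). Of the mRNAs known from dendrites, Map2 was higher (1.19, SE 0.15), Ddn (-2.05, SE 0.17) and Prkcz (-1.22, SE 0.14) were lower, and Bdnf (adjusted p = 0.44) and Arc (adjusted p = 0.89) were not called, so that dendritic mRNAs did not share 1 direction.

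**Figure D4:**
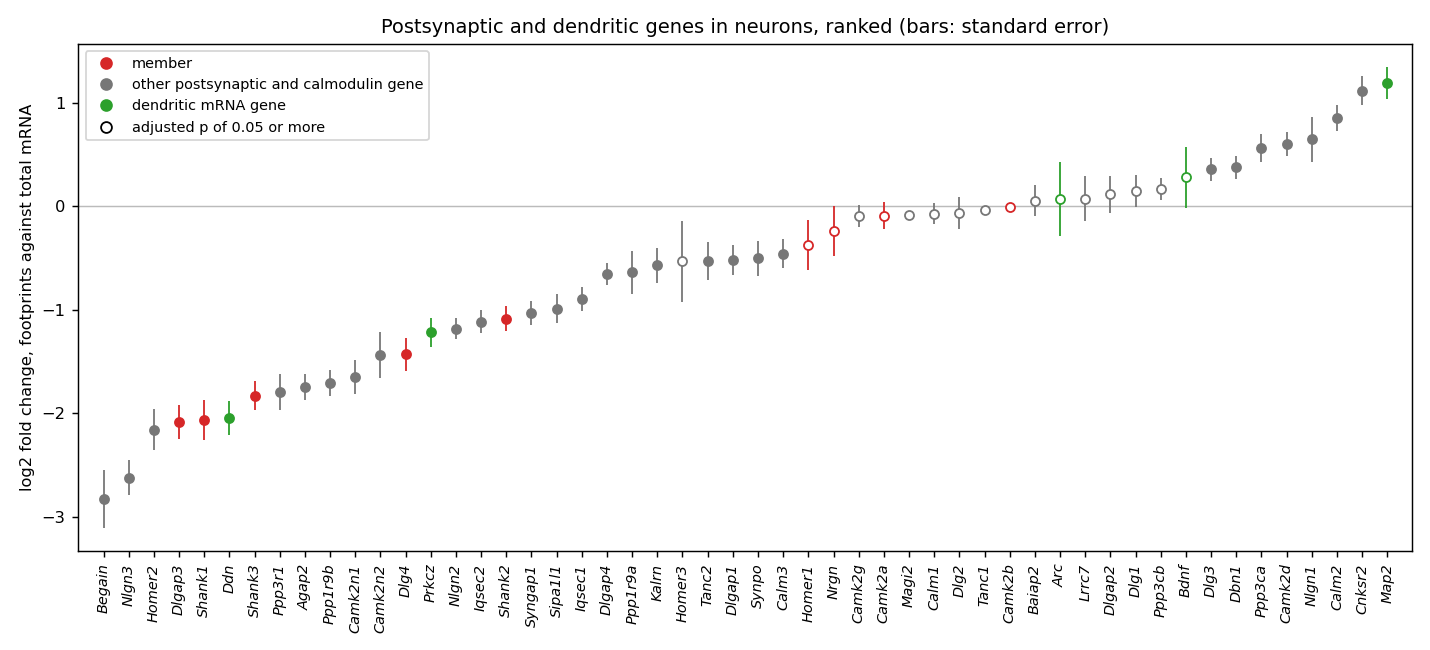
Fitted log2 fold change of footprints against total mRNA in neurons for the 9 genes (red), 38 other postsynaptic and calmodulin genes (grey) and 5 dendritic mRNAs (green), in rank order. Bars are standard errors, not drawn where p was above 0.9, and open symbols did not pass an adjusted p of 0.05. Values run from -2.83 to 1.19.

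In MN1 cells 6 of the 9 genes passed the filter on low counts, while Shank2, Shank3 and Nrgn did not. Dlgap3 was again lower in footprints, from -2.02 to -1.33 over 6 cultures (fitted -1.61, SE 0.12, adjusted p = 1.3e-07). Dlg4 was lower by less, from -0.81 to 0.07 (fitted -0.47, SE 0.13, adjusted p = 0.0060). These were 2 of 6 genes called lower, where 30.2% of 10212 genes were, and none was called higher. Homer1 had a fitted value of 0.32 (SE 0.19, adjusted p = 0.17), and without GFP replicate 1 it was called higher (0.54, adjusted p = 0.028; range over 10 alternatives 0.028 to 0.74). Camk2a (-0.53, SE 0.34), Camk2b (-1.05, SE 0.49) and Shank1 (-0.52, SE 0.35) had adjusted p-values of 0.20, 0.078 and 0.22, at 0 to 7 footprint reads per library.

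Whether the ratio itself differed between the cell types was tested as an interaction of cell type and library. Dlg4 was called lower in neurons than in MN1 cells (-0.86, SE 0.24, adjusted p = 0.025), where 2.13% of 12358 genes were. Shank3 also passed the threshold (-1.86, SE 0.52, adjusted p = 0.025), but it had not passed the filter on low counts in MN1 cells (46 total mRNA and 17 footprint reads in all) and entered this test through the neuron libraries, so that its value is a description only. The same holds for Shank2 and Nrgn. Camk2a, Camk2b and Shank1 passed that filter over both kinds of MN1 library together, but not in MN1 footprints alone. Shank1 had 20 reads in all there, so that the values of these genes are descriptions too. With cultures as a replicate block, Shank1 was called as well (-1.49, adjusted p = 0.038, against -1.46, adjusted p = 0.062 without), and 2.94% of genes were called lower. Scaling matters here: size factors of the relative log expression (RLE) kind moved the median of all genes by -0.22, from 0.20 to -0.02, and turned the share of called genes that were higher from 73.6% to 31.0%. Dlg4 (-1.08, adjusted p = 0.0063) stayed negative under it and was called. Shank1 (-1.68, adjusted p = 0.044), Shank2 (-2.17, adjusted p = 0.13) and Shank3 (-2.07, adjusted p = 0.018) stayed negative too. Their values rest on few MN1 footprint reads and remain descriptions, also where they passed the threshold.

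Both results past the threshold depended on single MN1 cultures. Without any 1 of the replicate 1 cultures (GFP, hTDP-43 or hTDP-43 A315T) 0 genes were called, without any 1 of the replicate 2 cultures 1 gene was, and with GFP and WT cultures alone 0 were. Dlg4 stayed between -0.96 and -0.81 without each MN1 culture in turn (adjusted p from 0.046 to 0.12). Shank3 fell to -0.09 (adjusted p = 1.00) without hTDP-43 A315T replicate 1, since the remaining footprint library of that group held 0 Shank3 reads. Dlgap3 did not pass (-0.36, SE 0.24, adjusted p = 0.39), nor did Shank2 (-1.96, SE 0.67, adjusted p = 0.15), Homer1 (-0.58, SE 0.39, adjusted p = 0.39), Camk2a (0.54, SE 0.33, adjusted p = 0.35) and Camk2b (1.13, SE 0.37, adjusted p = 0.096). Of the 38 related genes, Ppp3cb (0.69, SE 0.16) and Dlg3 (0.96, SE 0.23) had a higher ratio in neurons and Ppp1r9b (-0.70, SE 0.19) a lower one. Of all 12358 genes tested, 734 were called higher and 263 lower. With RLE size factors these counts were 187 and 417, and with GFP and WT cultures alone 0 genes were called in all.

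Effects of human TDP-43 on these genes in neurons were examined in 3 comparisons, of which both comparisons with WT share the same 2 control cultures. No gene of the 9 was called in total mRNA or footprints, where 0% of all genes were called in each of the 6 tests by edgeR, although 44 to 419 genes had an unadjusted p under 0.05. DESeq2 called 0 genes in 5 of these tests and 1 gene, none of the 9, in hTDP-43 A315T versus WT total mRNA. Fitted differences for the 9 genes ran from -0.35 to 0.48 on the log2 scale. The median standard error per test was 0.18 to 0.30, and differences of that size were not detectable with these cultures. The p-values measure the spread between these cultures only. When replicates of 1 number were blocked, the 9 genes again gave 0 calls, while 0.293%, 0.169% and 0% of all genes were called in total mRNA (hTDP-43 A315T versus WT, hTDP-43 versus WT and hTDP-43 A315T versus hTDP-43) and 0.0841%, 0.0616% and 0.179% in footprints.

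Camk2a came closest to a difference. In footprints it was at 811 and 465 CPM in WT, at 887, 857 and 840.0 CPM in hTDP-43 and at 836, 715 and 651 CPM in hTDP-43 A315T. The lowest hTDP-43 library (replicate 3, 840.0 CPM) rested on 137 reads. It barely exceeded the highest hTDP-43 A315T library (836 CPM), so that the groups were not clearly apart. By edgeR the log2 difference of hTDP-43 from WT was 0.45 (SE 0.20, unadjusted p = 0.042, adjusted p = 0.91). That of hTDP-43 A315T from hTDP-43 was -0.30 (SE 0.14, unadjusted p = 0.049, adjusted p = 1.00). Total mRNA of Camk2a was at 898 and 553 CPM in WT, 899.6, 1002 and 1038 CPM in hTDP-43 and 902, 822 and 677 CPM in hTDP-43 A315T. With the replicate block in edgeR, Camk2a differed between hTDP-43 and WT by 0.55 in footprints (unadjusted p = 0.0017, adjusted p = 0.39). In total mRNA, blocked differences were 0.60 for Camk2a (unadjusted p = 0.0059, adjusted p = 0.46) and 0.58 for Nrgn (unadjusted p = 0.0053, adjusted p = 0.45).

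**Figure D5:**
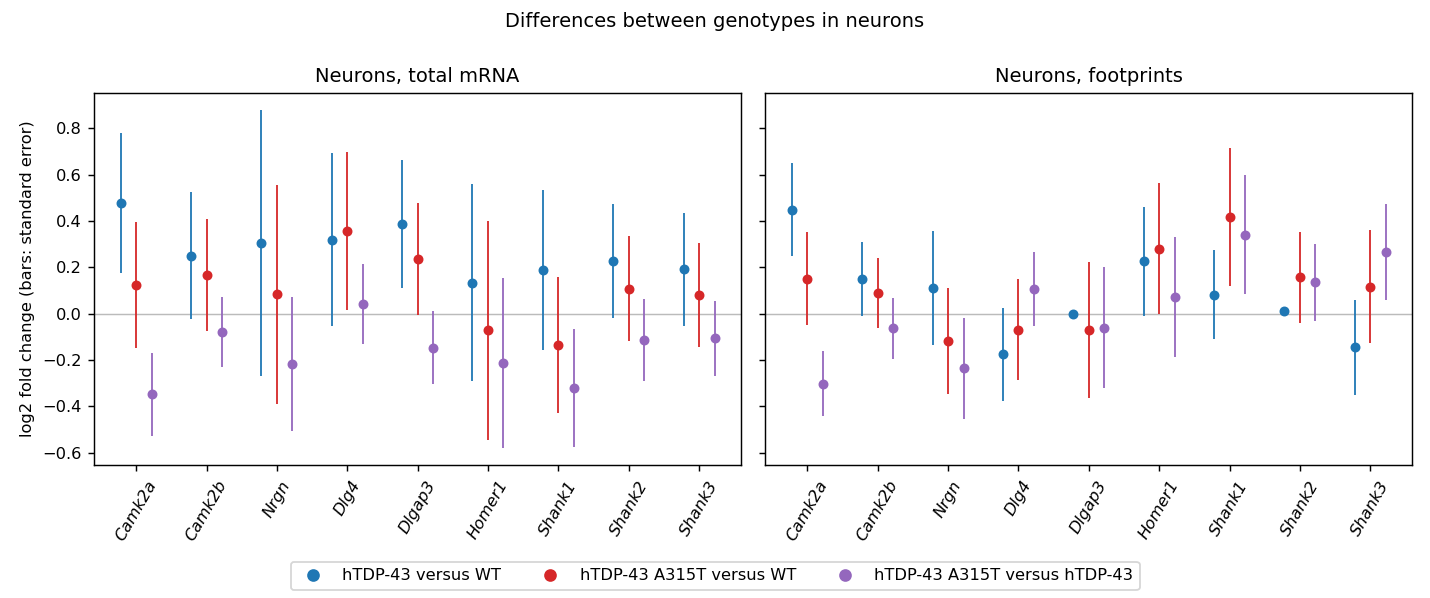
Fitted log2 fold changes between genotypes in neurons for the 9 genes, in total mRNA (left) and footprints (right). Bars are standard errors, not drawn where p was above 0.9. Values lie between -0.35 and 0.48, and none passed an adjusted p of 0.05.

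WT replicate 3 set much of the spread between groups. In its total mRNA, Dlg4 was at 634 CPM against 990.0 to 1446 CPM in the other 7 neuron libraries, Dlgap3 at 510.4 against 721 to 889 CPM, Camk2b at 915 against 1189.7 to 1377 CPM and Nrgn at 218 against 391 to 969.9 CPM. The excitatory neuron markers summed to 661 CPM in this library against 1085 CPM in WT replicate 2, and Lars2 took 18.8% of its reads; their part in these values was not tested. Shank1 (1528 CPM) and Homer1 (194 CPM) were not low in it. When WT replicate 2 was left out, so that WT replicate 3 stood alone and was assumed to vary like the other group, Dlg4 (1.03, adjusted p = 0.019) and Nrgn (1.31, adjusted p = 0.010) were called higher in hTDP-43 A315T than in WT total mRNA, together with 1573 genes in all.

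Homer1 varied widely between cultures of 1 genotype. Its total mRNA was at 219 and 226 CPM in hTDP-43 and hTDP-43 A315T replicate 1, at 96.6, 98.1 and 118.0 CPM in the 3 replicate 2 libraries and at 194, 154 and 79.3 CPM in the 3 replicate 3 libraries. Footprints of Homer1 were likewise highest in both replicate 1 cultures (149 and 183 CPM) against 67.4 to 115 CPM in the other 6. Replicates of 1 number carry the same date in their titles, and no WT culture of replicate 1 was analysed here, so that genotype comparisons with WT rest on replicates 2 and 3 for the control. Shank1 footprints were highest in hTDP-43 A315T replicate 1 (612 CPM, against 208 to 370 CPM in the other 7), and its difference between hTDP-43 A315T and hTDP-43 (0.34, SE 0.26) turned to -0.13 without that culture.

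Footprint to total mRNA ratios did not separate the genotypes in neurons either. In the tests of genotype by library, 0 of 9 genes were called in each of the 3 comparisons, where 0% of all genes were called, both without and with cultures as a block, and 72 to 195 genes had an unadjusted p under 0.05 without it. Shank1 had the largest fitted difference, of 0.66 (SE 0.40, adjusted p = 1.00) between hTDP-43 A315T and hTDP-43. Shank2 and Shank3, which hold the long TG runs, differed in this comparison by 0.24 (SE 0.25) and 0.37 (SE 0.28), and by -0.16 (SE 0.33) and -0.31 (SE 0.34) between hTDP-43 and WT.

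In MN1 cells the 3 genes with enough footprints, Dlg4, Dlgap3 and Homer1, differed by -0.40 to 0.39 between genotypes in footprints, and 5 or 6 genes passed the filter in total mRNA. None of them was called. Called genes made up 0.00965% of all genes for hTDP-43 A315T versus GFP, 0.01% for hTDP-43 versus GFP and 0% for hTDP-43 A315T versus hTDP-43 in total mRNA, and 0.0115%, 0% and 0% in footprints. When replicates of 1 number were blocked these shares rose to 2.73%, 0.472% and 0.754% in total mRNA and 0.624%, 0.156% and 0.706% in footprints, and still 0 of the 9 genes were called. The smallest blocked p among them was that of Dlgap3 total mRNA in hTDP-43 A315T versus GFP (0.30, SE 0.12, unadjusted p = 0.015, adjusted p = 0.16). Its total mRNA was at 84.8 and 107 CPM in GFP, at 96.0 and 103 CPM in hTDP-43 and at 128 and 131 CPM in hTDP-43 A315T. For the footprint to total mRNA ratio in MN1 cells, no gene of the 9 was called in any comparison, where 0% of all genes were called without the block and 0.0198%, 0% and 0.0399% with it.

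Over the 8 neuron total mRNA libraries the 9 genes did not vary as 1 group. Dlg4, Camk2b and Dlgap3 followed each other, with Pearson r of 0.95 between Dlg4 and Camk2b and 0.93 between Camk2b and Dlgap3. Shank2 and Shank3 followed each other (r = 0.87). Nrgn went with Dlg4 (r = 0.90) and against Shank1 (r = -0.59) and Homer1 (r = -0.62). These coefficients describe 8 libraries that share dates in their titles and differ in depth and in the share of Lars2 reads, and no test was made. Dlg4, Camk2b, Dlgap3 and Nrgn each had their lowest level in WT replicate 3 (634, 915, 510.4 and 218 CPM). Coefficients without that library are not given, so that they can rest largely on it. Genes outside the group whose total mRNA was most like the mean profile of the 9 included Ints7 (r = 0.98), Agap2 (0.98), Sowaha (0.97) and Cbarp (0.96), among 9381 genes with a mean of at least 10 CPM.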

How the data were processed

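The authors trimmed reads with cutadapt, removed non-coding RNA reads with bowtie2, aligned the rest with TopHat2 to GRCm38 and deposited raw counts per gene, which they made with featureCounts from uniquely mapped reads over the exons of the Ensembl 80 annotation, without strand. Footprints came from the monosome fraction and total mRNA was poly(A)-selected. The 9 genes and the lists were chosen with earlier results of these data known. Counts were tested with edgeR 4.0.16 (R 4.3.3; TMM, quasi-likelihood, count minimum 10 and total minimum 15, Benjamini-Hochberg over all genes tested, threshold 0.05); DESeq2 1.42.0 was an alternative. Scripts were tested on simulated counts. CPM used TMM library sizes. The footprint to total mRNA ratio was tested as an interaction. Same-numbered replicates share a date, of unstated kind, in the labels of each cell type, except 1 GFP footprint title, and were taken as pairing samples. Deviations of same-numbered libraries correlated at 0.28 to 0.39 in MN1 footprints, 0.44 to 0.61 in MN1 total mRNA, 0.02 to 0.24 in neuron footprints and -0.26 to 0.69 in neuron total mRNA. In none of the 20 pairs of libraries within a group did the counts agree within sampling noise. All 9 genes were named, and of each list at most 4 per direction by adjusted p. Of the genes most like the 9 in profile, 1 is not reported here. Leaving out the Lars2-rich cultures, and single MN1 libraries for Nrgn, was added after seeing the data.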

Additional observations from a re-analysis of the deposited data

Results flagged for a closer look

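Of 50 groups of libraries or cultures examined for a value far from the others, 5 had one, where chance gives about 1 in 20. WT replicate 3 had the lowest neuron total mRNA level of Camk2b, at 915 CPM against 1189.7 CPM in the nearest library, and of Dlgap3, at 510.4 CPM against 721 CPM. Shank1 footprints were highest in neuron hTDP-43 A315T replicate 1, at 612 CPM against 369.6 CPM in the nearest library. Nrgn in MN1 total mRNA was highest in GFP replicate 1, at 1.67 CPM, which is 3 reads. The MN1 log2 footprint to total mRNA ratio of Camk2b was lowest in hTDP-43 replicate 2, at -2.88, where the footprint library held 0 reads of it.

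In edgeR's interaction test the footprint to total mRNA ratio of Dlg4 was lower in neurons than in MN1 cells (-0.86, adjusted p = 0.025), and without single MN1 cultures its adjusted p was 0.046 to 0.12. Shank3 passed the threshold too (-1.86, adjusted p = 0.025), but it had too few MN1 reads to pass the filter there, and its value was -0.09 without MN1 hTDP-43 A315T replicate 1. Cycloheximide treatment differed between the cell types and cannot be told apart from them.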

How the results depend on the processing

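Of the alternative counts of called genes among the 9, 230 stayed within 1.5 times the reported count and 9 did not. For the difference of the footprint to total mRNA ratio between cell types, 2 genes were called, 4 with DESeq2, 3 with a replicate block, 0 with control groups alone, and 0 to 3 when 1 culture was left out. For hTDP-43 A315T versus WT total mRNA it was 0, and 0 to 2 when 1 culture was left out. The replicate block changed no other call among the 9 genes. Of single values, 776 kept their direction and side of the threshold, 9 passed it newly, 11 no longer passed it and 13 changed sign; the cause was not tested. None of those that changed sign had been called. The cell type difference of the ratio became -0.67 for Nrgn with DESeq2 and -0.26 for Camk2a with control groups alone. Camk2b footprints versus total mRNA in neurons became 0.0015 with the block. When 1 culture was left out, it ran from -0.14 to 0.0035, the cell type difference of the Nrgn ratio from -0.56 to 2.26, and Dlgap3 footprints in hTDP-43 A315T versus WT from -0.50 to 0.20. Nrgn in hTDP-43 versus WT ran from -0.34 to 1.496 in total mRNA and from -0.18 to 0.48 in footprints, and footprints in hTDP-43 A315T versus hTDP-43 from -0.13 to 0.57 for Shank1 and from -0.037 to 0.41 for Shank3. Over all genes, 997 had a different ratio between cell types, 604 with RLE size factors, 671 with DESeq2 (which moved the median of all genes by -0.27), 1322 with the block and 0 with control groups alone. In the same comparison of total mRNA, 10369 genes were called and 6471 with control groups alone. The genotype comparisons called at most 1 gene each, 1 to 209 without a filter, and up to 1573 when 1 culture was left out. Low depth limits the MN1 footprints of Camk2a, Camk2b, Nrgn and the Shank genes.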
